A study of Mus musculus with 2 samples.

Results

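The genes described here are 35 chromatin regulators whose human counterparts are known from syndromes that include a characteristic face. They were taken from a list of gene names with no threshold on a measured value, though the list was drawn up with earlier results of these data known, and all 35 were found among the 21644 protein-coding genes of the mouse annotation. Accessible chromatin was measured with DNase-seq, in which the nuclease DNase I cuts DNA that is not wrapped tightly in nucleosomes. The tissue was embryonic facial prominence, that is, the swellings from which the face is built. It came from healthy embryos of mouse strain B6NCrl aged 11.5 days, pooled over both sexes. The 2 libraries are biological replicates 1 and 2 of that single group and came from separate biosamples, per the labels. The labels name no mutation or treatment, and no other stage was analysed, so that the data describe where these genes were accessible in normal facial tissue and hold no comparison between conditions.

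Chromatin regulators slide or evict nucleosomes, write and erase histone marks, or hold DNA in loops, and they are made in nearly every cell. Loss of a single copy of many of them nevertheless gives a recognisable pattern of malformation, and neural crest cells, which build most of the facial skeleton, are among the cells that depend on them. In humans, CHD7 is the CHARGE syndrome gene, KMT2D and KDM6A are the Kabuki syndrome genes, CREBBP and EP300 those of Rubinstein-Taybi syndrome, NIPBL and its cohesin partners those of Cornelia de Lange syndrome, ARID1B and other BAF subunits those of Coffin-Siris syndrome, NSD1 that of Sotos syndrome and EZH2 that of Weaver syndrome.

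Each library had peaks of 150 bp and hotspots, which are longer stretches enriched for cuts. The libraries held 209299 peaks (replicate 1) and 219061 peaks (replicate 2) on chromosomes 1 to 19 and X, and 41.1% and 38.5% of them had a counterpart in the other library. Each peak carries the authors' strength, a whole number of unstated scale that ran from 1 to 134 in replicate 1 and from 2 to 149 in replicate 2. It was used only to rank and describe peaks inside a library, since the sequencing depth is unknown, and values of replicate 1 and replicate 2 are set side by side without comparing their levels. A strength percentile is the percentage of the library's peaks that were weaker. Cell type markers were also counted. Shared promoter peaks were found at 12 of 12 facial mesenchyme and neural crest markers, 3 of 6 facial ectoderm markers and 1 of 5 endothelial markers. They were found at 0 of 5 erythroid markers, 1 of 5 macrophage markers and 0 of 5 liver markers. The share over all protein-coding genes was 64.2%. It was 96.0% for genes whose promoter CpG content was above the median. The marker lists were not matched for CpG content, so these counts cannot check the tissue label. The material is bulk tissue, so that a site open in fewer cells and a site less open in each cell cannot be told apart.

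A peak counted as shared when a replicate 1 peak was covered over at least 75 bp by a replicate 2 peak. It was a promoter peak when its midpoint lay within 1 kb of the transcription start site (TSS) of a protein-coding transcript. All 35 genes had a shared promoter peak, as did 64.2% of all protein-coding genes. Most of these promoters are CpG-rich: 33 of the 35 had a ratio of observed to expected CpG above the median of all genes, the exceptions being Hdac8 at 0.411 and Kdm6b at 0.172. Among all genes with a ratio above that median, 96.0% had a shared promoter peak, a share close to that of the 35. The median ratio was 0.857 for the 35 genes and 0.610 for all genes. Of 77 other genes of the same complexes and families, 74 (96.1%) had a shared promoter peak. The 3 without one were Chd5, Hdac9 and Ctcfl, the last a relative of Ctcf known for its expression in the male germ line. Hdac9 had 8 promoter peaks in replicate 1 and 4 in replicate 2, none of them overlapping enough to count as shared.

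Across the 101 shared promoter peaks of the 35 genes, the strengths of both libraries rose together (Pearson's r 0.931, Spearman's rho 0.934). These peaks are not independent samples and share their libraries. The corresponding correlations over all 22994 shared promoter peaks were 0.933 and 0.944. In replicate 1, 137 peaks lay at promoters of the 35 genes and 73.7% of them had a match in replicate 2, where all genes gave 64.2%. In replicate 2 there were 145, of which 71.7% had a match, where all genes gave 58.3%. Unmatched promoter peaks of the 35 genes were the weaker ones, with a median strength of 35 in replicate 1 where the matched peaks had 67.

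The strongest promoter peaks of Suz12, Hdac4, Setd2 and Kmt2a are printed because they stand near the top of both libraries and lie outside annotated exons. Capitals mark GC boxes, GGGCGG or its reverse complement CCGCCC, the letters bound by the SP and KLF families of zinc finger proteins. A GC box was found in 54.5% of the 101 shared promoter peaks of the 35 genes and in 46.9% of all shared promoter peaks. The sequence is that of the reference genome, build mm10.
Suz12 promoter, chr11:79992936-79993085, plus strand: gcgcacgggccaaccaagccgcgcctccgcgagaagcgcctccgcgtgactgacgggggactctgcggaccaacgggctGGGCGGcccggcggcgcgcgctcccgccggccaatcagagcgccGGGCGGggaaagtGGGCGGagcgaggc
Hdac4 promoter, chr1:92180356-92180505, plus strand: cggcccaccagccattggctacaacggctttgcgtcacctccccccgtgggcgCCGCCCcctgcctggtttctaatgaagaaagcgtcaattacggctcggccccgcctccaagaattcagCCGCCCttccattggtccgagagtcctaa
Setd2 promoter, chr9:110532296-110532445, plus strand: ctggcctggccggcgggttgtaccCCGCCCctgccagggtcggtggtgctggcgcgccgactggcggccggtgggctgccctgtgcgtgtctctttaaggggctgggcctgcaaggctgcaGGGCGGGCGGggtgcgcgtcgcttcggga
Kmt2a promoter, chr9:44881416-44881565, plus strand: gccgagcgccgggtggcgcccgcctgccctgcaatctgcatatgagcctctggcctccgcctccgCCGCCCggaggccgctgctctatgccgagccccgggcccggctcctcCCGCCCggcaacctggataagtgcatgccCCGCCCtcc
Suz12 held 3 GC boxes by this search, Hdac4 held 2, Setd2 held 3, of which 2 overlap, and Kmt2a held 3. The GC content of these 4 peaks was 78.0%, 62.0%, 75.3% and 75.3%, where the median was 68.7% for all shared promoter peaks of the 35 genes and 64.7% for all genes. The AP-2 letters GCCNNNGGC, searched on both strands, were in 25.7% of the promoter peaks of the 35 genes and in 16.6% of all. Those of ETS factors, CCGGAAG, were in 3.96% (4 peaks) and 8.94%. Some other letters searched were near their background, such as CCAAT with 21.8% and 21.9% and AGGTCA with 4.95% and 4.65%. The shares were not matched for GC content, which was higher in the promoter peaks of the 35 genes, so these differences cannot be called particular to the genes.

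**Figure D1:**
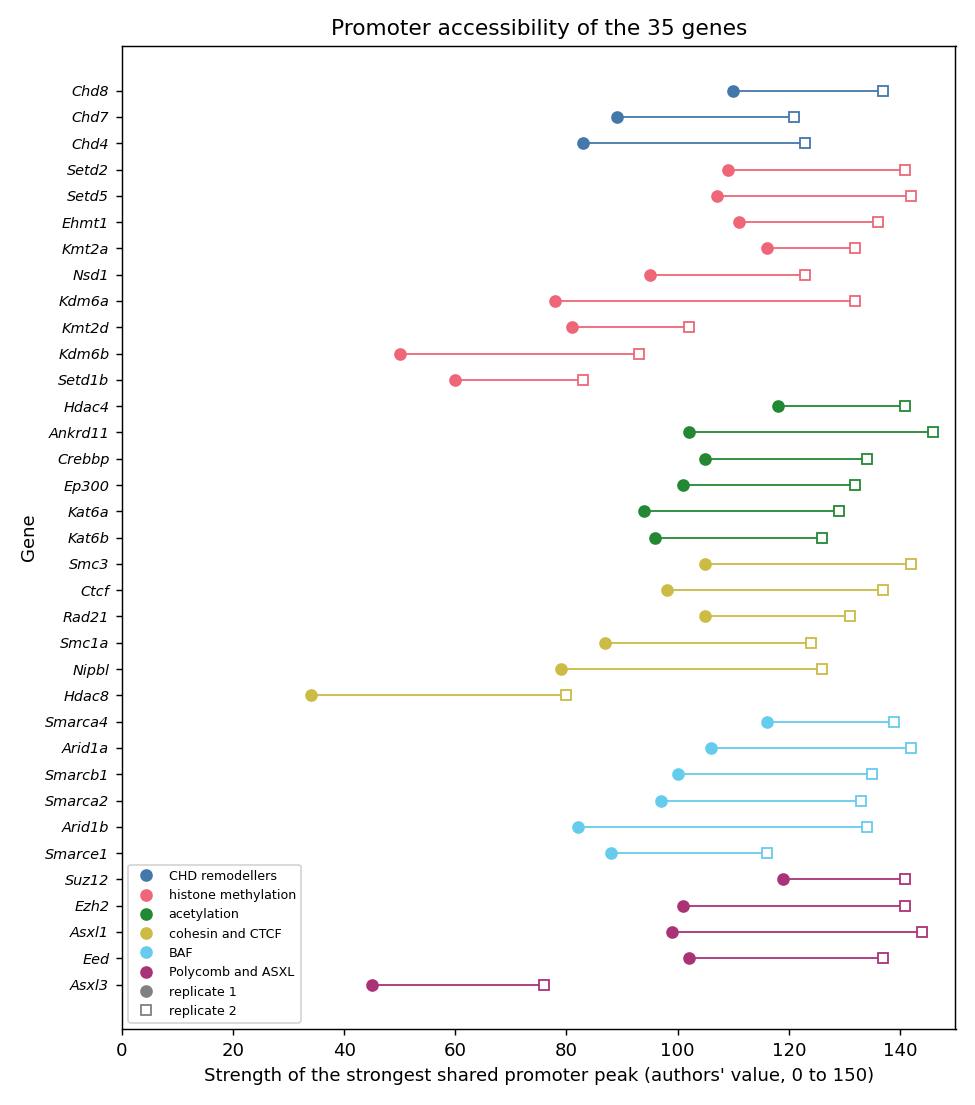
Strength of the strongest shared promoter peak of each of the 35 genes, by role group, as the authors' value (x axis, no unit) in replicate 1 (filled circles) and replicate 2 (open squares), with a line joining the libraries. The values run from 34 to 119 in replicate 1 and from 76 to 146 in replicate 2, and Hdac8, Asxl3, Kdm6b and Setd1b are the 4 lowest in replicate 1.

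Within a role group the strongest and the weakest promoter peak are those with the highest and the lowest mean strength percentile over both libraries, and where a single library gives another order this is said. The start of a noncoding gene lay within 1 kb of the strongest promoter peak at 10 of the 35 genes, namely Chd8, Chd4, Kmt2d, Setd1b, Setd5, Ep300, Ankrd11, Smc3, Eed and Asxl1. Which of the neighbouring starts such a peak serves cannot be told from its position.

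The CHD remodellers are ATPases that move nucleosomes. Chd8, a regulator of Wnt target genes and a gene of autism with large head size, had the strongest promoter peak of the 3, at chr14:52257816-52257965, 110 bp from its TSS. Its strength was 110 in replicate 1 and 137 in replicate 2. Chd4, the ATPase of the NuRD deacetylase complex, had the weakest of the 3 by mean percentile, at chr6:125095976-125096125, with strengths of 83 and 123. Chd7, known from human neural crest cells as a partner of BAF complexes at enhancers, had 89 and 121 at chr4:8690276-8690425 and was below Chd4 in replicate 2. The mean percentile over both libraries was 99.3 for Chd8, 96.4 for Chd7 and 96.1 for Chd4. Chd7 differed by the extent of its open promoter: 5 peaks were shared there, and its promoter hotspot was 3255 bp long in replicate 1 and 3087 bp in replicate 2.

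Histone methylation was covered by 9 genes. Setd2, which trimethylates histone H3 at K36, had the strongest promoter peak by mean percentile, at chr9:110532296-110532445, with strengths of 109 in replicate 1 and 141 in replicate 2, though it led in neither library alone. Setd5, a SET-domain protein linked to intellectual disability, had 107 and 142, in a peak 855 bp from the Setd5 TSS and within 1 kb of the start of the noncoding gene Gt(ROSA)26Sor. Ehmt1, which dimethylates H3K9, had 111 and 136 in a single shared promoter peak. Kmt2a, the founding MLL-type H3K4 methyltransferase, had 116 and 132. The mean percentiles of these 4 genes ran from 99.0 to 99.6.

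Nsd1, which dimethylates H3K36, followed with 95 in replicate 1 and 123 in replicate 2. It had 6 shared promoter peaks, spread over 4 annotated TSSs, and a hotspot of 3445 bp and 3882 bp. By peaks inside the promoter window, the Kabuki syndrome pair was intermediate. Kdm6a, the X-linked H3K27 demethylase, had 78 and 132 at chrX:18162416-18162565, and Kmt2d, the enhancer-associated H3K4 methyltransferase, had 81 and 102. A stronger Kmt2d peak, with 91 and 134, lay 1.05 kb upstream, in the promoter hotspot in both libraries and near a RefSeq mRNA start of Kmt2d. The place of Kmt2d therefore depends on the edge of the window. Setd1b, a COMPASS-type H3K4 methyltransferase, had the weakest promoter peak of the group by mean percentile, at chr5:123141676-123141825, with 60 and 83. Kdm6b, the autosomal relative of Kdm6a, was next to it with 50 and 93 at chr11:69413316-69413465, below Setd1b in replicate 1, and a hotspot of 547 bp and 314 bp. Setd1b and Kdm6b thus stood below the other 7 genes of the group in both libraries, and both had many peaks just outside the promoter window, described with the distal peaks. A Setd1b peak just outside the window, with 89 and 132, lay in the promoter hotspot of the gene in both libraries. The place of Setd1b as weakest therefore depends on the edge of the window.

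The acetylation group holds acetyltransferases, which add the mark of active chromatin, a deacetylase that removes it and the deacetylase-recruiting protein Ankrd11. Hdac4, a class II deacetylase that restrains chondrocyte maturation, had the strongest promoter peak by mean percentile, at chr1:92180356-92180505, with strengths of 118 in replicate 1 and 141 in replicate 2. Ankrd11, the KBG syndrome gene, had 102 and 146, the highest replicate 2 value of the 35 genes. The paralogous coactivators Crebbp and Ep300 were close to each other, with 105 and 134 for Crebbp and 101 and 132 for Ep300. Kat6a and Kat6b, paralogous acetyltransferases of the MYST family, were also close, with 94 and 129 for Kat6a and 96 and 126 for Kat6b. The Kat6b peak, at chr14:21501136-21501285, was the weakest of the group by mean percentile and in replicate 2, while Kat6a was weaker in replicate 1. The mean percentile was 97.4 for Kat6b and 99.8 for Hdac4.

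Cohesin is the ring that extrudes DNA loops until it meets CTCF. Smc3, a core subunit of the ring, had the strongest promoter peak of this group by mean percentile, at chr19:53599996-53600145, with strengths of 105 in replicate 1 and 142 in replicate 2. Rad21, which closes the ring, had 105 and 131. Ctcf, the zinc finger protein that anchors loops, had 98 and 137, and its promoter peak also lay within 1 kb of a TSS of Agrp, a feeding neuropeptide gene that starts nearby. Nipbl, the cohesin loader, had 79 and 126 over 4 shared promoter peaks. Smc1a, the X-linked partner of Smc3, had 87 and 124 at chrX:152016296-152016445, in a promoter shared with Ribc1. Hdac8, which deacetylates SMC3 so that cohesin can be reused, had the weakest promoter peak of all 35 genes by mean percentile and in replicate 1, at chrX:102505276-102505425, with 34 and 80. Its mean percentile was 80.1, where the other 5 genes of the group lay above 96.

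Of the 3 genes on the X chromosome, Kdm6a and Smc1a had strengths above the median of X-linked genes with a shared promoter peak, which was 57 in replicate 1 and 105 in replicate 2, and Hdac8 was below it in both. The autosomal medians were 86 and 124. A shared promoter peak was found at 46.3% of X-linked and 65.0% of autosomal genes. The embryos were of mixed sex, so that X copy number differed among the cells, and its part in these values was not tested.

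The BAF complexes are nucleosome remodellers that keep enhancers open. Smarca4, their ATPase BRG1, had the strongest promoter peak of the group by mean percentile, at chr9:21615976-21616125, with strengths of 116 in replicate 1 and 139 in replicate 2. Smarca2, the alternative ATPase BRM, had 97 and 133 at chr19:26604936-26605085. The paralogous DNA-binding subunits had 106 and 142 for Arid1a, at chr4:133754356-133754505, and 82 and 134 for Arid1b, at chr17:4994216-4994365. Arid1a was thus above Smarca4 in replicate 2. The core subunit Smarcb1 had 100 in replicate 1, at chr10:75921556-75921705, and stood at percentile 98.7 in replicate 2. Smarce1, an HMG-box subunit, was weakest by mean percentile and in replicate 2, at chr11:99230416-99230565, with 88 and 116, while Arid1b was weaker in replicate 1. The mean percentiles of the 6 BAF promoters ran from 95.8 to 99.7.

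The Polycomb repressive complex that methylates H3K27 is built on Ezh2, Eed and Suz12. Suz12, its scaffold, had the strongest promoter peak of all 35 genes by mean percentile, at chr11:79992936-79993085, with strengths of 119 in replicate 1 and 141 in replicate 2. Ezh2, the methyltransferase, had 101 and 141, and Eed, which reads the mark, had 102 and 137. The 3 subunits thus had mean percentiles from 98.9 to 99.8, where the median of the 35 genes was 98.5. The ASXL proteins are partners of the histone H2A deubiquitinase BAP1. Asxl1, the Bohring-Opitz syndrome gene, had 99 and 144, while its paralogue Asxl3 had 45 and 76, at chr18:22344236-22344385. Its percentiles of 84.9 and 81.0 were the lowest of the 5 genes in each library. A stronger peak of Asxl3, with 83 and 119, lay 1.12 kb upstream of its TSS and so just outside the promoter window.

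The strongest promoter peak had a median strength of 99 in replicate 1 and 133 in replicate 2 over the 35 genes, 85 and 123 over all genes with a shared promoter peak, and 95 and 129 over all genes in the highest of 4 equal classes of CpG ratio. The open promoters of the 35 genes were also long. At least 3 shared promoter peaks were found at 19 of the 35 genes, where the share over all genes was 11.7%. It was 18.3% among genes with any shared promoter peak. Among such genes it was 24.7% in that class and 29.7% (22 of 74) for the other genes of these complexes. The highest number among the 35 genes, 6, was reached by Nsd1, Arid1a and Smarca2, and Chd7 had 5. At Arid1a and Smarca2 the 6 were made up of 3 at each of 2 promoters more than 2 kb apart. The median number of TSSs was 2 both for the 35 genes and for all genes with a shared promoter peak.

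Hotspots gave the same picture without counting peaks. The promoter hotspot of the 35 genes had a median length of 1869 bp in replicate 1 (range 471 to 3493) and 2252 bp in replicate 2 (range 314 to 4988). Genes with a shared promoter peak had medians of 1061 bp and 1208 bp, and those in the highest CpG class had 1313 bp and 1490 bp. The 35 were above the median of all such genes in 31 cases in replicate 1 and in 32 cases in replicate 2, where the share over all is 49.8% and 49.9%. The same median was exceeded by 54 (replicate 1) and 60 (replicate 2) of 74 other genes of these complexes. In the highest CpG class it was exceeded by 3529 and 3687 of 5259 genes. For the 74 other genes of these complexes with a shared promoter peak, the medians were 1440 bp and 1694 bp, between the 35 genes and the highest CpG class. All 35 hotspots were at the ceiling of 100 of the deposited −log10 q in both libraries, which 86.6% and 96.5% of all such genes also reached. The q value therefore could not rank them.

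**Figure D2:**
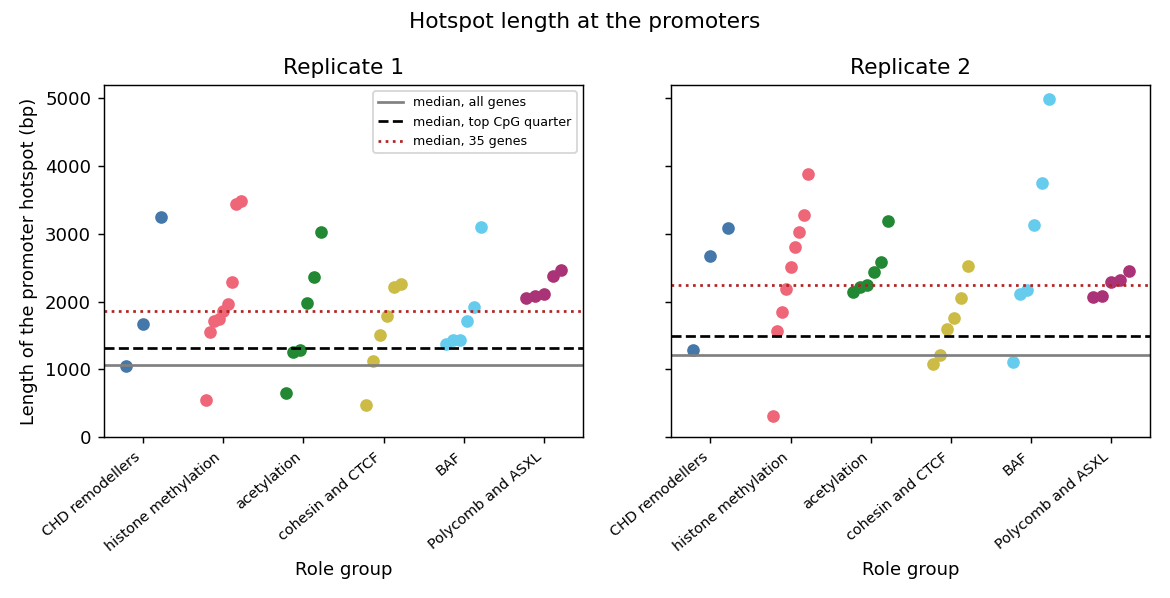
Length in bp (y axis) of the hotspot at the promoter of each of the 35 genes (points), by role group (x axis), in each replicate (panels). Lines give the medians of the 35 genes (1869 and 2252 bp), of all genes with a shared promoter peak (1061 and 1208 bp) and of those in the highest CpG class (1313 and 1490 bp).

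The 5 longest in replicate 1 were Setd5 (3493 bp in replicate 1 and 3026 bp in replicate 2), Nsd1 (3445 and 3882 bp), Chd7 (3255 and 3087 bp), Arid1b (3110 and 3135 bp) and Kat6b (3023 and 3188 bp). The libraries did not always give the same length. Smarca2 had 1435 bp in replicate 1 and 4988 bp in replicate 2, Arid1a had 1441 and 3758 bp, and Crebbp had 652 and 2149 bp. Kdm6b had a short hotspot in both, and Hdac8 had 471 and 1086 bp.

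Alternative promoters were examined by joining TSSs less than 2 kb apart. Of the 35 genes, 10 had a further cluster of TSSs in the basic GENCODE set. By that set, shared peaks at both clusters were found only at Arid1a and Smarca2. At Arid1a the outer promoter had a strength of 82 in replicate 1, a percentile of 95.8, and stood at percentile 98.7 in replicate 2. The inner promoter, 3.16 kb away, had strengths of 106 and 142, at percentiles 99.2 and 99.8. At Smarca2 the upstream promoter had 97 and 133, and the internal promoter 142.6 kb downstream, from which 9 of the 12 annotated TSSs start, had 59 and 121. Percentiles at the internal Smarca2 promoter were 90.9 and 95.9, and both promoters of this gene were therefore open in both libraries. At the other 8 genes, which were Chd7, Chd8, Ehmt1, Setd5, Kat6b, Hdac4, Ankrd11 and Ezh2, the inner cluster had no shared promoter peak. Fuller annotation adds starts at some of them. A peak inside Chd8, at chr14:52244496-52244645 with 92 in replicate 1 and 131 in replicate 2, lay within 1 kb of a protein-coding Chd8 start of the comprehensive GENCODE set and of a RefSeq mRNA start. A peak inside Setd5, at chr6:113103896-113104045 with 30 and 64, lay 1.07 kb from the inner TSS and within 1 kb of a RefSeq mRNA start of the gene.

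A peak farther than 1 kb from every TSS was distal and was assigned to the gene of the nearest TSS, whether or not it acts on that gene. The 35 genes had 420 distal peaks in replicate 1 and 496 in replicate 2, of which 182 were shared, matching 173 in replicate 2. Replicate 1 peaks that overlap each other were counted separately. At least 1 shared distal peak was found at 33 of the 35 genes, where the share over all genes was 62.8%. Their median was 3 and that of all genes was 1. Genes with large surroundings collect more peaks, so an expected number was set for each gene by sharing out all 62956 shared distal peaks in proportion to the genome nearest to its TSSs. The sum expected for the 35 was 137. More than expected was found at 19 of the 35, where the share over all genes was 44.4%. That is 54.3% of the 35. The share was 51.4% of genes with a shared promoter peak, 52.1% of genes in the highest CpG class and 59.7% (46 of 77) of the other genes of these complexes, so that the count of 19 is near its background. Over the 182 peaks the strengths of the libraries again rose together (Pearson's r 0.874, Spearman's rho 0.857).

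**Figure D3:**
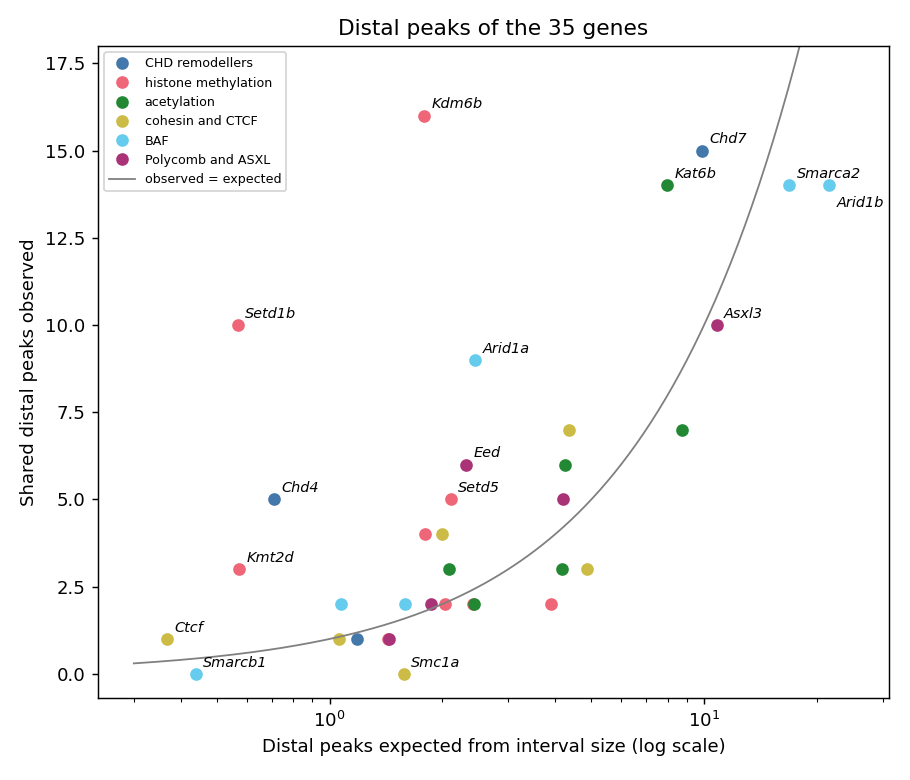
Shared distal peaks (y axis) against the number expected from the genome nearest to the gene (x axis, log scale) for each of the 35 genes (points coloured by role group), with a curve where both are equal. Setd1b (10 found, 0.569 expected), Kdm6b (16 and 1.79) and Chd4 (5 and 0.709) lie far above the curve, and Arid1b (14 and 21.6) below it.

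Setd1b had the highest ratio of found to expected, 17.6, with 13 distal peaks in replicate 1, 15 in replicate 2 and 10 shared. The gene sits in a small interval of 22.6 kb, and its peaks 8.33 and 8.39 kb from the TSS overlap each other but were counted separately. Of its shared distal peaks, 5 lay upstream within 4.32 kb of the TSS, all within 1 kb of the annotated start of a noncoding or other transcript, and 5 lay inside the gene. The strongest, at chr5:123141116-123141265 and 1.00 kb from the TSS, had strengths of 89 and 132, above those of the Setd1b promoter peak itself. It lay in the promoter hotspot of the gene in both libraries and within 1 kb of a RefSeq mRNA start of Setd1b. Its count as distal therefore rests on the edge of the window.

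Kdm6b had 23 distal peaks in replicate 1, 30 in replicate 2 and 16 shared, the most of the 35 genes, at a ratio of 8.95. They lay on both sides of its single GENCODE TSS, with 13 of them between 1.88 and 6.70 kb from it, separate from the hotspot of that promoter. The strongest by mean percentile, at chr11:69418856-69419005 and 5.25 kb upstream, had strengths of 97 and 134, where the promoter peak had 50 and 93. RefSeq places further Kdm6b mRNA starts in this stretch, and all 13 lie within 1 kb of such a start. Of the 12 RefSeq mRNAs of the gene, 11 are predicted models, and 2 of the 16 distal peaks lay within 1 kb of the start of the curated one. With RefSeq starts in place of GENCODE ones, Kdm6b had 15 shared promoter peaks and 1 distal peak, so that its distal excess and its weak, short promoter both depend on which starts are taken as annotated.

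Chd4 had 7 distal peaks in replicate 1, 8 in replicate 2 and 5 shared, at a ratio of 7.05. Its strongest were a pair upstream at 6.95 and 6.07 kb, with strengths of 61 and 112 and of 54 and 107. Kmt2d reached a ratio of 5.22 with 9 in replicate 1, 2 in replicate 2 and 3 shared. The strongest of these shared peaks, 1.05 kb upstream, had 91 and 134. It lay in the promoter hotspot of the gene in both libraries and within 1 kb of a RefSeq mRNA start of Kmt2d.

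Chd7 had 38 distal peaks in replicate 1, 46 in replicate 2 and 15 shared, with 9.86 expected. Of these, 9 lay downstream of the gene, 156 to 203 kb from the nearest Chd7 TSS. That TSS is the inner one, 60.52 kb from the outer start, and had no shared promoter peak. The strongest lay 43.4 kb upstream, with 111 in replicate 1 and 134 in replicate 2, so that it outranked the Chd7 promoter peak, with 89 and 121, in both. Kat6b had 40, 32 and 14, with 7.96 expected, and its 9 upstream peaks lay in the neighbouring adenosine kinase gene Adk, up to 212 kb away. The strongest of these, at chr14:21369176-21369325, had 49 and 95.

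Arid1b and Smarca2 each had 14 shared distal peaks with more expected, 21.6 and 16.9, since their intervals span 858.5 and 672.6 kb. Arid1b had 42 in replicate 1 and 58 in replicate 2, and Smarca2 had 53 and 56. At Smarca2 all 14 were moderate: the strongest, at chr19:26770196-26770345 inside the gene, had 42 and 85. The 3 strongest of Arid1b lay at 86.6 kb and 217 kb upstream and 193 kb inside the gene. The first stood at percentiles 98.9 in replicate 1 and 98.7 in replicate 2. The others had strengths of 76 and 92 and of 77 and 131. Asxl3 had 18 in replicate 1, 33 in replicate 2 and 10 shared, close to the 10.8 expected, and 5 of the 10 lay 185 to 330 kb downstream.

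The lowest ratios were those of Smc1a, Smarcb1, Kdm6a and Hdac8. Smc1a had 0 distal peaks in replicate 1, 3 in replicate 2 and 0 shared, with 1.58 expected. Smarcb1 had 0, 1 and 0, with only 0.440 expected. Kdm6a had 7 in replicate 1, 4 in replicate 2 and 2 shared with 3.91 expected, a ratio of 0.511. Hdac8 had 4, 12 and 3 with 4.87 expected, a ratio of 0.615. All 3 X-linked genes were thus at or below 0.615. The median number of shared distal peaks over all X-linked genes was 0, and over autosomal genes 1. Among the Polycomb subunits, Suz12 had 1 with 1.44 expected, Ezh2 had 5 with 4.20 and Eed had 6 with 2.32, while Eed had none inside the gene. Most of the Eed peaks lay within 1 kb of annotated starts of other genes, such as E230029C05Rik, and some overlap each other.

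**Figure D4:**
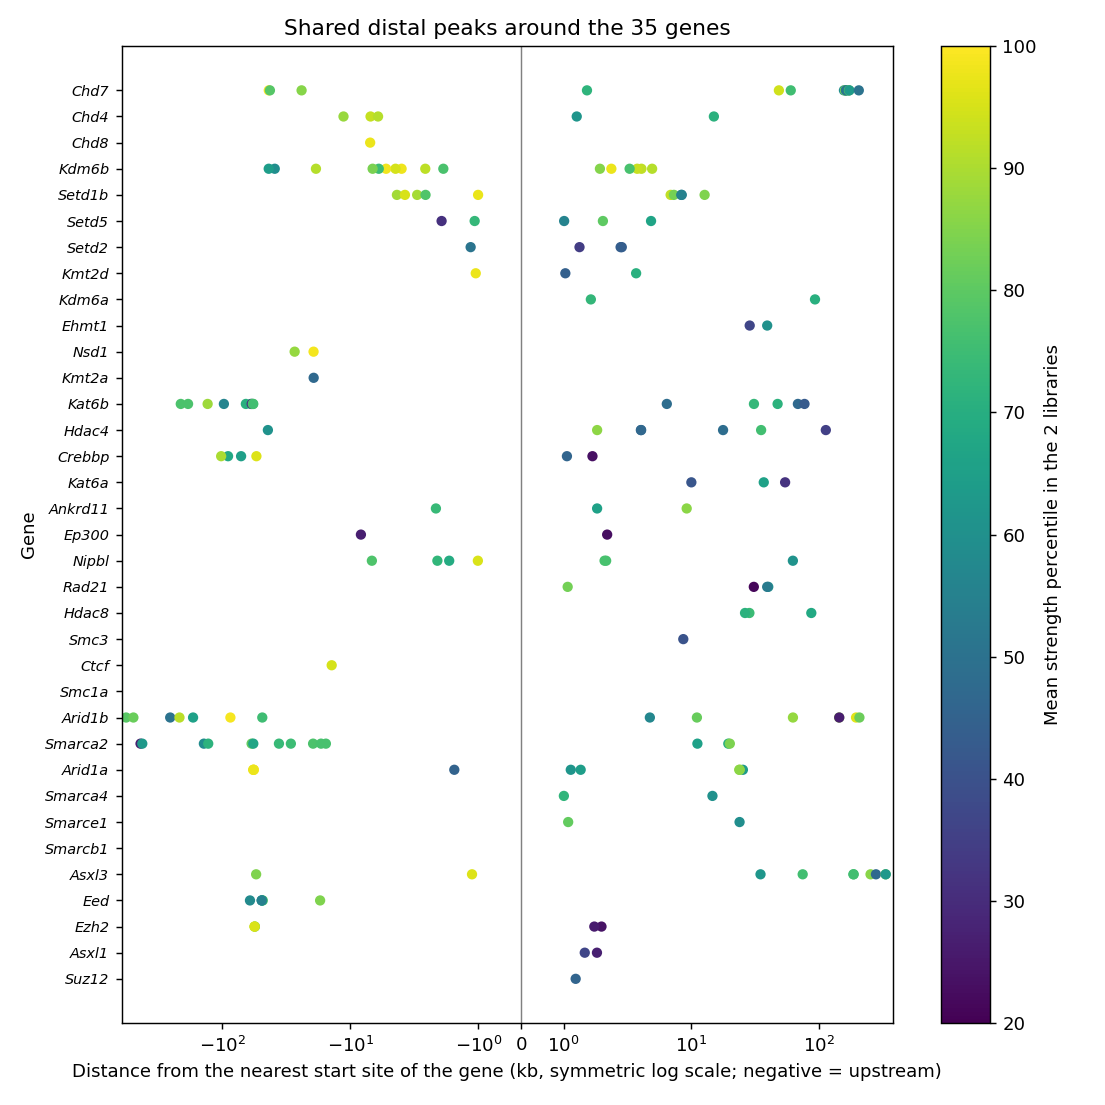
Position of the 182 shared distal peaks of the 35 genes (rows) as distance in kb from the nearest TSS of the gene (x axis, symmetric log scale, negative upstream), coloured by the mean strength percentile over both libraries. Kdm6b and Setd1b hold most of their peaks within 10 kb, while Chd7, Arid1b, Smarca2 and Kat6b hold peaks beyond 100 kb.

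Compared with all shared distal peaks, those of the 35 genes lay nearer and more often inside the gene. In the gene itself were 49.5%, where all genes gave 36.4%. Upstream lay 40.7% and 39.2%, and downstream 9.89% and 24.4%. Within 10 kb of the TSS were 39.6%, where all genes gave 26.5%, and the median distance was 23.8 kb and 30.7 kb. Of the 72 peaks of the 35 genes within 10 kb, Kdm6b held 13 and Setd1b held 9. The 13 of Kdm6b depend on the annotation, as described above. Gene length, on which the share inside the gene can depend, was not matched. Of the 182, 17 lay in the same hotspot as a promoter peak in at least 1 library, and 54 lay within 1 kb of some other annotated transcript start, 34 of these a start of the gene itself. The promoter window therefore divides some open promoters of these genes. The same counts were not made over all shared distal peaks, so they cannot be read as a trait of the 35 genes.

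Distal peaks as strong as promoter peaks were picked out after the values were seen, as those with a mean strength percentile of at least 95. There were 18 of these among the 182 (9.89%), at 12 genes, and the share over all shared distal peaks was 2.09%. Some of the 18 were neighbours at the same gene, as at Arid1a, Kdm6b and Setd1b, and those of Kdm6b lay near RefSeq starts of that gene. The 2 shares were not matched for such clusters or for annotation, so their difference cannot be called particular to the 35 genes. Their GC content ran from 56.7% to 79.3% with a median of 68.7%, the same as the median of the promoter peaks of these genes, where the median of all distal peaks was 50.0%. Of the 18, 13 lay within 1 kb of an annotated transcript start and 14 lay outside any promoter hotspot of the gene. Neither share was counted over the equally strong distal peaks of all genes, so neither can be called particular to the 35. The strongest of the 18 that lie outside annotated exons are printed at 7 genes, for their resemblance to promoters in GC content. Each CG dinucleotide is in capitals, and all are from build mm10.
Chd7 distal peak, chr4:8647456-8647605, plus strand: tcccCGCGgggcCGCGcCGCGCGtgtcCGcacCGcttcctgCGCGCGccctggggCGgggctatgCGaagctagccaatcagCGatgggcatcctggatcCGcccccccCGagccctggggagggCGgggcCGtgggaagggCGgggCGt
Arid1b distal peak, chr17:4908256-4908405, plus strand: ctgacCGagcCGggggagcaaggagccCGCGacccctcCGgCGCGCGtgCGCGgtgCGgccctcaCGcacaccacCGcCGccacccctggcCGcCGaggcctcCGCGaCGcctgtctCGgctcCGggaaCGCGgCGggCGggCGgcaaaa
Arid1a distal peak, chr4:133814196-133814345, plus strand: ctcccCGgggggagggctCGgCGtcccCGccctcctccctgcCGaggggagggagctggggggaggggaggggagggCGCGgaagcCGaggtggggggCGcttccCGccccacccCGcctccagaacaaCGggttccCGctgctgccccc
Ezh2 distal peak, chr6:47651156-47651305, plus strand: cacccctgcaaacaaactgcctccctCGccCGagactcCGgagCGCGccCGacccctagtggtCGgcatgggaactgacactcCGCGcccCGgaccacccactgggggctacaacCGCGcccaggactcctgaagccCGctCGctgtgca
Nsd1 distal peak, chr13:55190316-55190465, plus strand: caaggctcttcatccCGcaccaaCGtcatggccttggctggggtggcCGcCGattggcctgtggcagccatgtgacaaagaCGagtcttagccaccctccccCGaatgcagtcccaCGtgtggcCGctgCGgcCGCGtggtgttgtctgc
Crebbp distal peak, chr16:4268156-4268305, plus strand: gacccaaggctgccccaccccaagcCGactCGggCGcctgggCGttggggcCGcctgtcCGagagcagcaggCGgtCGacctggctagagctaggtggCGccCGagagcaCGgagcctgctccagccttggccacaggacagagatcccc
Kdm6b distal peak, chr11:69418856-69419005, plus strand: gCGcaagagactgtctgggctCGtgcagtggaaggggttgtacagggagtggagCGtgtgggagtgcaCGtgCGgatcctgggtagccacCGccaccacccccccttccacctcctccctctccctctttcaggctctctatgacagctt
The number of CG dinucleotides was 21 in the Chd7 peak, 26 in that of Arid1b, 13 in that of Arid1a, 14 in that of Ezh2, 11 in those of Nsd1 and Crebbp and 6 in that of Kdm6b. The median was 14 over the promoter peaks of the 35 genes and 2 over all shared distal peaks. The Chd7, Arid1b and Ezh2 peaks lay within 1 kb of the RefSeq starts of the noncoding genes Gm8273, Gm34507 and Gm40371, and the Arid1a peak within 1 kb of an mRNA start of Gm34296. No annotated start lay within 1 kb of the Nsd1 peak, 19.4 kb upstream with strengths of 99 in replicate 1 and 136 in replicate 2, or of the Crebbp peak, 54.2 kb upstream with 87 and 116. At Arid1a the printed peak, with 99 and 127, is 1 of 3 side by side 56.8 to 57.5 kb upstream. The other 2 had 109 and 127 and 102 and 140, and they overlap annotated exons, so their letters are not shown.

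The CTCF motif, searched on both strands, was found in 8 of the 182 distal peaks, 4.40%, at 8 genes, where all shared distal peaks gave 8.91%, and in 0 of the 101 promoter peaks, where all gave 1.86%. None of the 18 strongest distal peaks held it. The only shared distal peak of Ctcf itself did: it lay 14.0 kb upstream of the gene, inside Agrp, with strengths of 83 in replicate 1 and 109 in replicate 2. It is shown beside the CTCF-motif peaks of Arid1b, 217 kb upstream with 76 and 92, and of Crebbp, 102 kb upstream with 59 and 92, with the motif in capitals, build mm10.
Ctcf distal peak, chr8:105622516-105622665, plus strand: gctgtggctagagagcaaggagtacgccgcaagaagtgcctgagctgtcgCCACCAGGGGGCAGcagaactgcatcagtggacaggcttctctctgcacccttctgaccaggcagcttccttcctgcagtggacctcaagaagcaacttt
Arid1b distal peak, chr17:4778296-4778445, plus strand: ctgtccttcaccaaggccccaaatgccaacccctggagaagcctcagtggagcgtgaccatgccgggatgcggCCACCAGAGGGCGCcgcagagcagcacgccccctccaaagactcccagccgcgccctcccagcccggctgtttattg
Crebbp distal peak, chr16:4316176-4316325, plus strand: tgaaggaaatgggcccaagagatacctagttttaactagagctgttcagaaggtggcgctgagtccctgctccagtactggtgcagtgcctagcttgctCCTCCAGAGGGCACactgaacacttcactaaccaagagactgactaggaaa
A motif match describes the letters and does not show that CTCF was bound. The 3 peaks had 58.0%, 66.7% and 50.7% GC, and 3, 9 and 1 CG dinucleotides. The motif also lay in distal peaks of Setd1b, Kat6b, Asxl3, Smarca2 and Kdm6a.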

How the data were processed

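The authors deposited, per library, 150 bp peaks with a signal value (strength) and hotspots with a −log10 q; both were called on that library alone on build mm10, per the notes deposited with the files. The sources used here do not give the aligner, peak caller or depth, and no interval for counting error can be given. Per the labels, replicate 1 and replicate 2 were sequenced on partly different instruments, whose part in the values was not tested. Protein-coding transcript starts came from the basic set of GENCODE M21, further starts and sequence from RefSeq on GRCm38.p6, the same build. Overlap, nearest start, CpG ratio over 1000 bp and motifs were computed with Python 3.11.15, numpy 2.4.6, pandas 2.3.3, scipy 1.17.1 and pysam 0.24.0, and plotted with matplotlib 3.10.9. The scripts were tested on simulated data. Coordinates are 1-based. Runs of N of at least 1000 bp were left out of the genome shares behind the expected numbers.

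No test was made: 1 group of 2 libraries allows no comparison of conditions, and genes and peaks are not replicates. The genes and lists were chosen with earlier results of these data known. Each gene is named with its promoter peak. Full values are given for the strongest and weakest promoter of each role group, the genes with most or no distal peaks (2 genes tied at 10 were both taken), the 3 highest and 3 lowest ratios (a tie at 0 counts as 2), genes with several open promoters and X-linked genes. Sequences were limited to peaks outside annotated exons. Alternatives in overlap, promoter window, strength, library and starts are given in the closing section.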

Additional observations from a re-analysis of the deposited data

How the results depend on the processing

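The number of the 35 genes with a shared promoter peak was 35 in most settings. It was 33 with a single TSS per gene at its outer end, where Kat6b and Hdac4 had none, and it fell to 21 under a minimum overlap of 90%, where the share over all genes fell to 28.8%. That requirement also lowered the median of shared distal peaks per gene to 1 and their sum to 47. Keeping the 50000 strongest peaks of each library gave a median of 1 and a sum of 60. The median was 4 with 1 bp of overlap, 5 with a 500 bp promoter window, 2 with a 2500 bp window and 4 with a single TSS per gene. Using the peaks of a single library gave a median of 7 to 8 and a sum of 420 to 496, since unshared peaks then count. The number of genes with more distal peaks than expected ran from 14 to 25, and the share over all genes from 33.6% to 48.3%. They did not always move together, since the highest share, with replicate 2 alone, went with 22 genes. The number was 14 with the 50000 strongest peaks (33.6% of all genes) and with distal peaks within 100 kb (38.6%), and 25 with the 500 bp window (47.1%). GENCODE comprehensive starts and RefSeq starts were alternatives chosen after seeing the data, and with them this number was 21 (43.8% of all genes) and 18 (44.2%). No paired analysis was possible because the series holds 1 group. The unknown depth of each library limits what the absence of a shared peak can say, most of all for weak distal peaks.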
